A study of Mus musculus with 11 samples.

Results

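The 7 genes described here, P2rx2, P2rx3, Htr3a, Htr3b, Chrna6, Chrna7 and Chrnb3, encode subunits of channels that open when a small transmitter binds. They were chosen by name, as subunits of ATP-gated, serotonin-gated and acetylcholine-gated channels, from 24243 symbols listed in any table, and all 7 are among the 14905 gene symbols that all 8 deposited tables list. Their levels were followed across classes of trigeminal neurons, across libraries and between uninjured and injured nuclei.

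Nuclei were purified from frozen mouse trigeminal ganglia with an antibody against NeuN, a neuronal nuclear protein, and sequenced as 7 10x libraries and 1 Drop-seq table that pools 4 libraries. The 8 tables hold 40359 nuclei and 132982556 UMIs (unique molecular identifiers, which count captured RNA molecules). Each condition is 1 table made from several pooled mice of both sexes, so conditions were compared as values, with no test between them. Tests were made only between sums of nuclei within the same library, with the libraries as replicates.

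All mice were older than 6 weeks. The control libraries came from wildtype C57BL mice that had no injury (control_10x and control_DropSeq). For infraorbital transection (IOT, spared nerve injury in the labels), the superficial branches of the infraorbital nerve, which serves the whisker pad, were cut in C57BL mice, sparing the other branches, and the ganglion of the cut side was taken after 2, 7, 21 or 75 days. Facial injury mice, also C57BL, received shallow skin cuts to the cheeks and forehead, and the study's methods put the ganglia at the same interval as the earliest IOT group. Scratch lesion mice were of a mixed FVBN, C57BL and 129 background and carried both the Fos-tTA and tetO-mCherry-2A-Gnaq transgenes. They scratched their faces, and the study calls the cause of the scratching unclear. It reports that a doxycycline diet kept the scratching from developing, and that mCherry was not detected in somatosensory neurons. Strain, transgenes and lesions therefore cannot be told apart in that library.

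The 10x libraries held 3634 to 8660 nuclei each, with a median of 1747 to 4178.5 UMIs per nucleus, while control_DropSeq held 3178 nuclei with a median of 1755.5. The neuronal genes Rbfox3, which encodes NeuN, Snap25 and Syt1 had at least 1 UMI in 35.4 to 60.0%, 60.3 to 92.3% and 71.7 to 96.3% of nuclei per table. Pairs of 10x libraries shared 16 to 92 cell barcodes. Joint clustering of all nuclei, done with the 7 genes, their relatives and all marker genes withheld, gave 26 classes of uninjured nuclei, of which 8 could be named from markers, and 1809 injured nuclei. A named class is written here with "-like", and an unnamed class by 2 genes that lead it. Atf3, the transcription factor that marks damaged sensory neurons, had a UMI in 61.0% of the injured nuclei and 2.77% of the others. Injured nuclei numbered 581, 507, 261 and 99 after IOT at days 2, 7, 21 and 75, 133 after facial injury and 216 with scratch lesions, against 4 in control_10x and 8 in control_DropSeq.

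As background, P2X receptors are trimeric cation channels opened by extracellular ATP. P2rx3 subunits form channels alone or together with P2rx2, and both are known from small sensory neurons. The other 5 genes belong to the Cys-loop family of pentameric channels, named for a loop in the extracellular domain that is closed by a bridge between a pair of cysteines. Serotonin channels of the 5-HT3 type need Htr3a, which works alone, while Htr3b works only in partnership with it. Among nicotinic acetylcholine receptor subunits, Chrna7 forms channels of 1 subunit type, Chrna6 carries part of the ligand site in mixed channels, and Chrnb3 is an accessory subunit commonly found with Chrna6. The mouse gene models used for positions are those of GENCODE vM21 on GRCm38 (mm10).

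The Cys-loop is shown for the 5 genes as the coding strand from the first cysteine codon to the second, because it is the family's defining stretch and shows how alike the genes are. Capitals mark the cysteine codons, and each stretch of 45 bases lies within 1 coding exon. For Chrna7, which has a second cysteine pair at this spacing, the first is shown.
Htr3a (chr9:48904608-48904652, minus strand): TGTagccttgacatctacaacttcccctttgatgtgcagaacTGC
Htr3b (chr9:48946446-48946490, minus strand): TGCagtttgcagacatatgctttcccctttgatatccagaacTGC
Chrna6 (chr8:27407332-27407376, minus strand): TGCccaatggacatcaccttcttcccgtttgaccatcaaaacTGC
Chrna7 (chr7:63107658-63107702, minus strand): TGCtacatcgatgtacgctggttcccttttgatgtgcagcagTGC
Chrnb3 (chr8:27393711-27393755, plus strand): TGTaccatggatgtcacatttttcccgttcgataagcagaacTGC

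Chrna6 and Chrnb3 matched at 33 of the 45 bases and Htr3a and Htr3b at 31, while the other pairs matched at 25 to 30. Over the whole aligned coding sequence the same pairs led, with 60.6% identity for Chrna6 and Chrnb3, 59.7% for Htr3a and Htr3b, and 51.5 to 56.0% for the others. These 2 pairs are also neighbours in the genome. Htr3a (chr9:48899213-48911099) and Htr3b (chr9:48935008-48964990) lie on the minus strand, 23908 bases apart with no gene between them. Chrnb3 (chr8:27368711-27399730, plus strand) and Chrna6 (chr8:27403212-27413944, minus strand) face each other with their 3′ ends, 3481 bases apart, also with no gene between them. Chrna7 spans chr7:63098692-63212569, P2rx3 chr2:84998583-85037462 and P2rx2 chr5:110339812-110343212, all on the minus strand. Introns were counted, and they make up 72.9 to 96.0% of every span except that of P2rx2, at 24.3%. P2rx3 overlaps Ssrp1 and Htr3a overlaps the antisense gene Gm32335, both on the opposite strand, and Chrna7 overlaps Gm44741 on the same strand. The study reports that counting introns led to the loss of some overlapping genes, so reads in these overlaps may have gone uncounted.

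Levels by neuron class are given in CPM, the gene's UMIs per 1000000 UMIs of the class, as the mean ± SD over the 7 10x libraries, and describe the classes without a test. Values compare a gene with itself across classes, not 1 gene with another. P2rx3 was highest in the C13-like class, named for the nonpeptidergic nociceptors that carry Mrgprd. Mrgprd had a UMI in 26.8% of these nuclei and 1.09% of the rest, while the listed markers Mrgprb5 and Lpar5 were nearly absent, at 0.38% and 1.70%. Its level there was 137 ± 36.2 CPM (SD, n = 7), with 125 in control_10x, 136, 99.5, 105 and 208 after IOT at days 2, 7, 21 and 75, 135 after facial injury and 149 with scratch lesions. That class, 11.8% of uninjured nuclei, held 38.4% of the P2rx3 UMIs. The day 75 library stood above the other 6 in this class.

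P2rx3 stood next in the C11-like class, marked by Il31ra, Sst and Nppb and known for itch, at 86.0 ± 37.2 CPM, then in the Bmpr1b/Cnih3 class at 67.3 ± 16.1. The 2010300C02Rik/Tspan18, Chodl/Itga2 and Cplx2/Spint2 classes followed at 54.4, 52.7 and 50.97 CPM and the C12-like class, marked by Mrgpra3, at 38.0. Neighbours in this order had overlapping library ranges throughout, and at the bottom was the Hpse/Best3 class at 4.59 CPM. P2rx3 had a UMI in 31.8% of C13-like nuclei (median 2563 UMIs) against 1.35% of Hpse/Best3 nuclei (median 2421 UMIs). In Drop-seq the first places were reversed, with 162 CPM in the C11-like class, from 7 UMIs, and 150 in the C13-like class.

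P2rx2 was sparse and sat mainly in 1 class. The C11-like class, 1.61% of uninjured nuclei, held 40.5% of its UMIs, 62 in all, at 46.5 ± 22.9 CPM. The libraries gave 49.6 CPM in control_10x, 17.6, 53.7, 79.3 and 46.9 after IOT at days 2, 7, 21 and 75, 62.5 after facial injury and 16.1 with scratch lesions, from 3 to 16 UMIs each. The C12-like class came next at 6.89 ± 7.26 CPM and the C8-like class at 3.58, so the leading places of P2rx2 were taken by small-diameter classes. The ranges of the C11-like and C12-like classes overlapped. Control_DropSeq had 0 UMIs among its 28 C11-like nuclei, which allows up to 85.2 CPM, the upper bound of the exact Poisson 95% interval, so the level was not detectable at that depth.

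Both serotonin channel genes had their highest mean in the Chodl/Itga2 class. Htr3a stood there at 169 ± 71.4 CPM, followed by Cplx2/Spint2 at 116 ± 44.3, Calb2/Rasgrp2 at 97.1 ± 49.7, Bmpr1b/Cnih3 at 75.3 ± 37.4 and C7/9/10-like at 62.2 ± 20.2. In the Chodl/Itga2 class the libraries gave 168 CPM in control_10x, 118, 96.7, 158 and 122 after IOT in order of days, 303 after facial injury and 218 with scratch lesions. The facial injury library stood highest. The large Cplx2/Spint2 class held 41.8% of all Htr3a UMIs in 10.4% of the nuclei.

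Htr3b was at 30.8 ± 18.5 CPM in Chodl/Itga2, 27.0 ± 10.1 in Zfpm2/Chrm2, 24.3 ± 8.44 in Cplx2/Spint2 and 24.1 ± 9.97 in Bmpr1b/Cnih3. Its second class, Zfpm2/Chrm2, was only the seventh for Htr3a, at 40.4 CPM. In the Chodl/Itga2 class the libraries gave 25.8 CPM of Htr3b in control_10x, 34.6, 4.21, 18.4 and 24.1 after IOT in order of days, 52.0 after facial injury and 56.6 with scratch lesions. The day 7 value rested on 1 UMI and lay below the 5.84 CPM of all other uninjured nuclei of that library. For both genes the ranges of neighbours in the order overlapped. The lowest class was Hpse/Best3 for Htr3a, at 10.3 CPM, and the C11-like class for Htr3b, at 1.44 CPM. Htr3a had a UMI in 47.6% of Chodl/Itga2 nuclei (median 5570 UMIs) and in 5.70% of Neb/Myh8 nuclei (median 4487 UMIs), the class second from the bottom. Among the other 6 genes, Htr3a was most like Htr3b across the 26 classes (Pearson's r = 0.80 on log2(CPM + 1), over classes drawn from the same libraries).

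Chrna7 stood at 225 ± 53.7 CPM in the Cplx2/Spint2 class and 201 ± 53.9 in the Chodl/Itga2 class, and these overlapped each other. The Hpse/Best3 class was at 66.6 ± 22.1 CPM, and its range of 26.5 to 87.8 lay below the 143 to 290 of the Chodl/Itga2 class. In the Cplx2/Spint2 class the libraries gave 261 CPM in control_10x, 301, 160, 274 and 213 after IOT in order of days, 187 after facial injury and 180 with scratch lesions. Cplx2/Spint2 nuclei held 57.0% of all Chrna7 UMIs in 10.4% of nuclei.

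The Chrna7-rich classes were also deeper, with medians of 4456 and 5570 UMIs, which bears on the share of nuclei with a UMI. That share was 53.2% in Cplx2/Spint2 and 1.93% in the C5-like nuclei (median 2711 UMIs), the class with the lowest CPM, and 20.8% against 0.69%, as means over libraries, when every nucleus was thinned to 1000 UMIs. In Drop-seq the same classes led, at 90.8 and 80.4 CPM. Smr2, which encodes a small secreted protein, was also highest in the Cplx2/Spint2 class, at 19.7 CPM of summed counts, with the C7/9/10-like class next at 10.4. The same class thus held the highest levels of Chrna7 and Smr2 and the second highest of Htr3a.

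Chrnb3 and Chrna6 marked small-diameter classes more than large ones. Chrnb3 was at 111 ± 29.1 CPM in the C8-like class, marked by Trpa1, with 119 CPM in control_10x, 85.8, 156, 122 and 77.5 after IOT in order of days, 133 after facial injury and 85.4 with scratch lesions. The next class, C7/9/10-like peptidergic nuclei, was at 27.3 ± 9.25 CPM and its range of 14.7 to 40.8 lay below all of these. Chrnb3 was among the leading genes of the C8-like class although it was withheld from clustering, as Chrna7 was for Cplx2/Spint2. The C8-like class held 40.1% of Chrnb3 UMIs in 4.10% of nuclei. The same class carried Chrna3 at 51.7 CPM and Chrnb4 at 21.2 CPM of summed counts, which encode subunits that join into another nicotinic channel.

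Chrna6 was highest in the C11-like class at 61.7 ± 24.7 CPM, then in the C13-like class at 27.8 ± 10.7. The C5-like, C8-like and C7/9/10-like classes followed at 23.0, 21.9 and 16.1 CPM, and ranges of neighbours overlapped throughout. In the C11-like class it ranged from 22.2 CPM with scratch lesions to 90.9 in control_10x. Control_DropSeq put the C13-like class first, at 112 CPM. In the Adarb2/Unc5d class, near the bottom of the order, it was at 1.06 CPM. Chrna6 and Chrnb3 therefore shared classes C5, C7/9/10, C8 and C13 among their leading 5, but Chrnb3 was at or near the floor in the C11-like class, where 5 of 571 nuclei had a UMI.

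**Figure D1:**
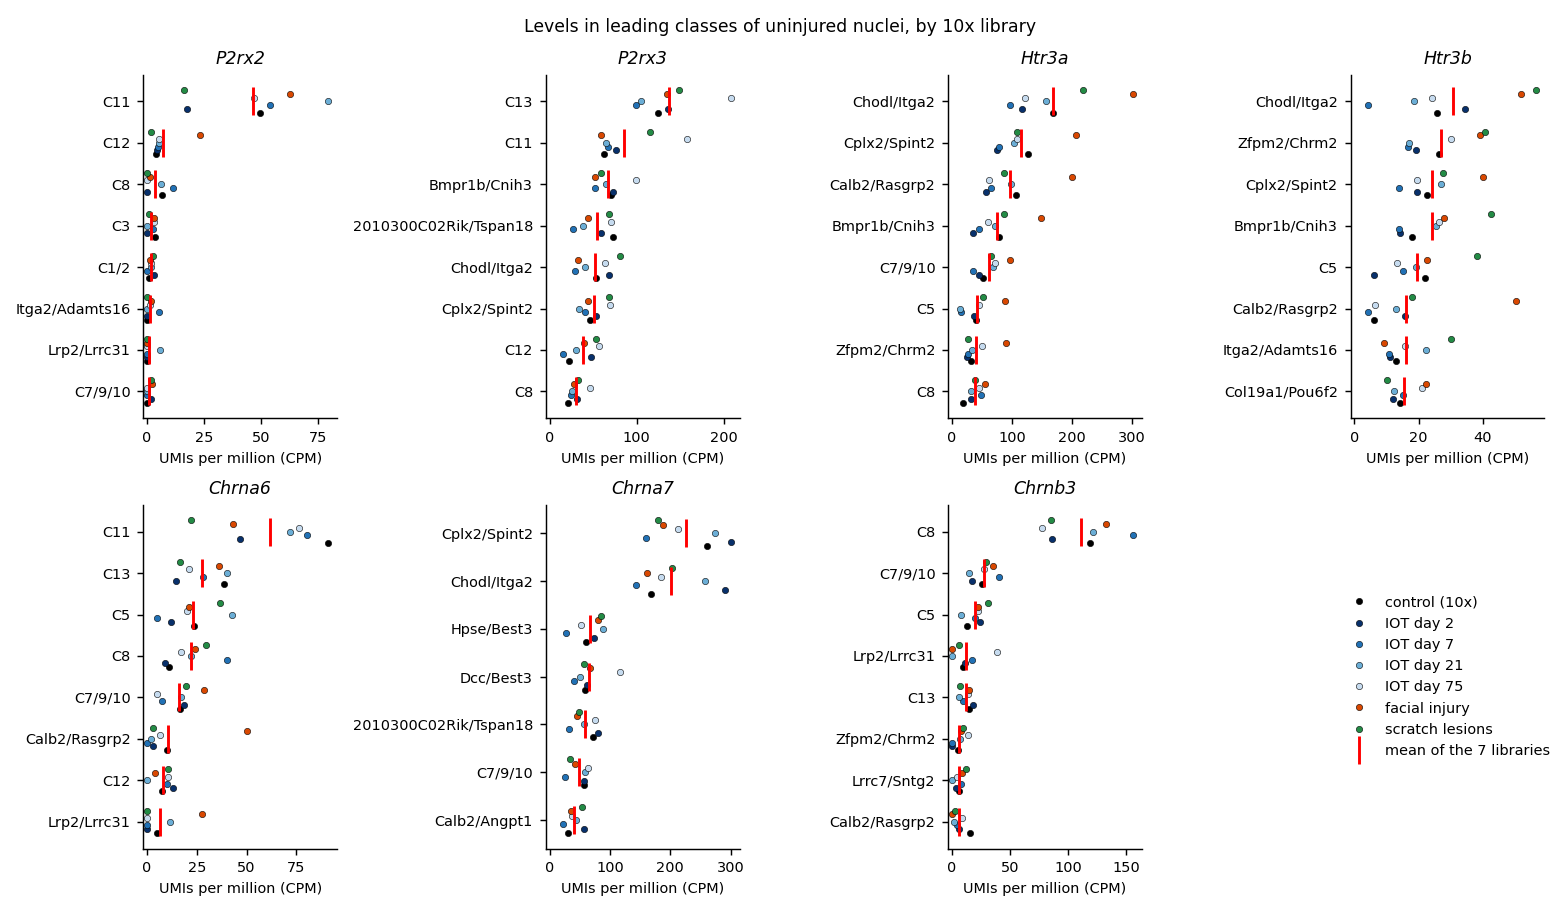
CPM of each of the 7 genes in its leading classes of uninjured nuclei, with a point per 10x library and a red line at the mean of the 7. P2rx2 peaked in the C11-like class at 46.5 CPM, P2rx3 in the C13-like class at 137, Chrnb3 in the C8-like class at 111, and Chrna7 in the Cplx2/Spint2 class at 225.

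Some genes had profiles much like those of the members over the 26 classes, among 9776 genes that reached 20 CPM in at least 1 class. The profile of P2rx2 was closest to those of Cysltr2, Osmr and Il31ra, with r of 0.94, 0.91 and 0.89, receptors for leukotrienes, oncostatin M and interleukin 31. Chrnb3 was closest to Cartpt, Trpa1 and Lig1 (r of 0.80, 0.75 and 0.74), and Htr3a to Ngfr, Ptgir and Gng8 (0.84, 0.82 and 0.81). P2rx3 was closest to Unc13c, Deptor and Atp8a1 (0.91, 0.88 and 0.88) and Chrna6 to Fam89a, Celf6 and Tbrg1 (0.88, 0.85 and 0.85). The closest profile to Htr3b was that of Htr3a (0.80), followed by Hes1 and Ngfr (0.70 and 0.66). Chrna7 had no profile above 0.74, with Tecpr1, Clec18a and Itgav at 0.74, 0.72 and 0.72. In the 3178 Drop-seq nuclei these correlations were lower, at 0.13 for Cysltr2, 0.67 for Unc13c, 0.45 for Trpa1 and 0.75 for Htr3b with Htr3a. Some of these genes, such as Il31ra and Trpa1, were class markers, and the points share libraries and depth.

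Whether partner subunits were seen in the same nucleus was examined by thinning each uninjured nucleus to 1000 UMIs and comparing the number of nuclei with both genes with the number expected from the 2 shares within each class. Htr3a and Htr3b were found together in 1.61 times the expected number of nuclei over the 7 10x libraries. By library the ratio was 1.93 in control_10x, 2.24, 4.32, 2.40 and 1.54 after IOT in order of days, 1.31 after facial injury and 1.57 with scratch lesions, and 2.18 in control_DropSeq. All 8 ratios lay above 1. Without thinning, 37.4 ± 5.23% (SD, n = 7) of nuclei with an Htr3b UMI had one of Htr3a, while 10.5% of all uninjured nuclei did.

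Chrna6 and Chrnb3 were together in 1.54 times the expected number, but the libraries ranged from 0.73 to 2.22, and the thinned count was only 10.9 nuclei. P2rx2 and P2rx3 gave 1.87, from 5.14 nuclei, with 10x libraries between 0.36 and 2.99 and no such nucleus in control_DropSeq. Htr3a and Chrna7 gave 1.18 ± 0.08 (SD, n = 7), above 1 in every 10x library. P2rx3 and Chrna7 gave 0.75 ± 0.09, with all 7 10x libraries between 0.63 and 0.89 and control_DropSeq at 1.16. In unthinned nuclei the P2rx3 and Chrna7 ratio was 0.94 ± 0.07, so its size depended on depth. Nuclei of 1 library are not replicates and a droplet can hold more than 1 nucleus, so these ratios are descriptions.

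**Figure D2:**
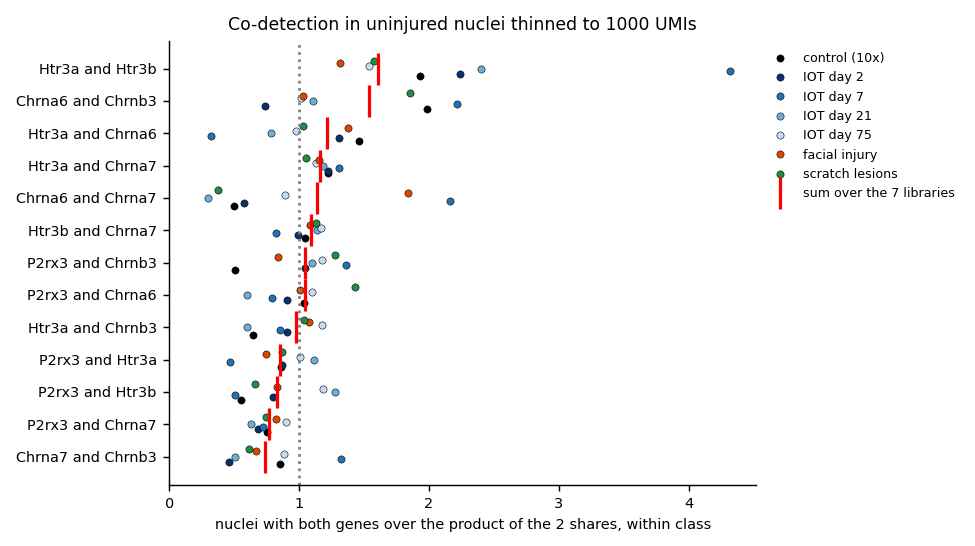
Observed over expected number of nuclei with UMIs of both genes, for pairs of the 7 genes with at least 5 such nuclei expected, within classes and after thinning to 1000 UMIs. Each 10x library is a point and the red line is the ratio of sums over the 7. Htr3a with Htr3b lay above 1 in every library and P2rx3 with Chrna7 below 1 in all 7 10x libraries.

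In uninjured nuclei, levels differed between libraries by more than counting error for most of the genes, but each condition is 1 library and no test of a condition could be made. Htr3a was at 41.6 CPM in control_10x, 31.6, 25.2, 38.4 and 53.2 after IOT at days 2, 7, 21 and 75, 93.6 after facial injury and 42.8 with scratch lesions. The facial injury library stood apart from the other 6. It exceeded control_10x in 26 of 26 classes, and with its classes weighted as in the control it was at 85.6 CPM. The values in classes with little Htr3a were also higher there, at 14.8 CPM on 18 UMIs against 6.57 on 7 in Neb/Myh8, and 18.2 on 5 against 6.66 on 1 in Hpse/Best3, with overlapping 95% intervals in both. A UMI was found in 6.10% of Neb/Myh8 nuclei after facial injury (median 3855 UMIs) and 3.49% in control_10x (median 5550), or 2.57% and 0.96% when thinned to 1000 UMIs, which left out 5 of the 295 nuclei of facial injury. In Chodl/Itga2 the shares were 54.6% and 42.6%. Free RNA can give UMIs in nuclei that do not express a gene, and its part in the difference was not tested. Htr3b was also highest there, at 19.2 CPM against 9.60 in control_10x, and above it in 23 of 26 classes. Control_DropSeq, from uninjured mice, had 69.2 CPM of Htr3a and 9.97 of Htr3b.

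P2rx3 was at 31.8 CPM in control_10x, 33.2, 26.3, 24.3 and 60.8 after IOT in order of days, 36.0 after facial injury and 47.3 with scratch lesions. The day 75 library was highest, above the control in 25 of 26 classes, and it was also the deepest, with a median of 4178.5 UMIs. Chrna7 ran from 40.8 CPM at IOT day 7, the shallowest 10x library, to 87.7 at day 2, with 62.9 in control_10x and 31.0 in control_DropSeq. Across 10x libraries thinned to 1000 UMIs the highest share of nuclei with Chrna7 was 1.75 times the lowest, against 2.15 times in CPM. The part of depth and capture method in these differences was not tested.

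The sparser genes moved within narrower absolute limits. Chrna6 was lowest at IOT day 2, 3.84 CPM against 9.09 in control_10x, and otherwise between 7.46 and 10.8 in 10x libraries. Chrnb3 lay between 6.38 and 14.5 CPM, with IOT day 7 highest, and P2rx2 between 0.67 and 1.94 CPM from 11 to 42 UMIs, where only the intervals of IOT day 2 and facial injury did not overlap. Chrna6 and Chrnb3 were higher in control_DropSeq, at 21.5 and 16.1 CPM, than in control_10x, while Chrna7 was lower.

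**Figure D3:**
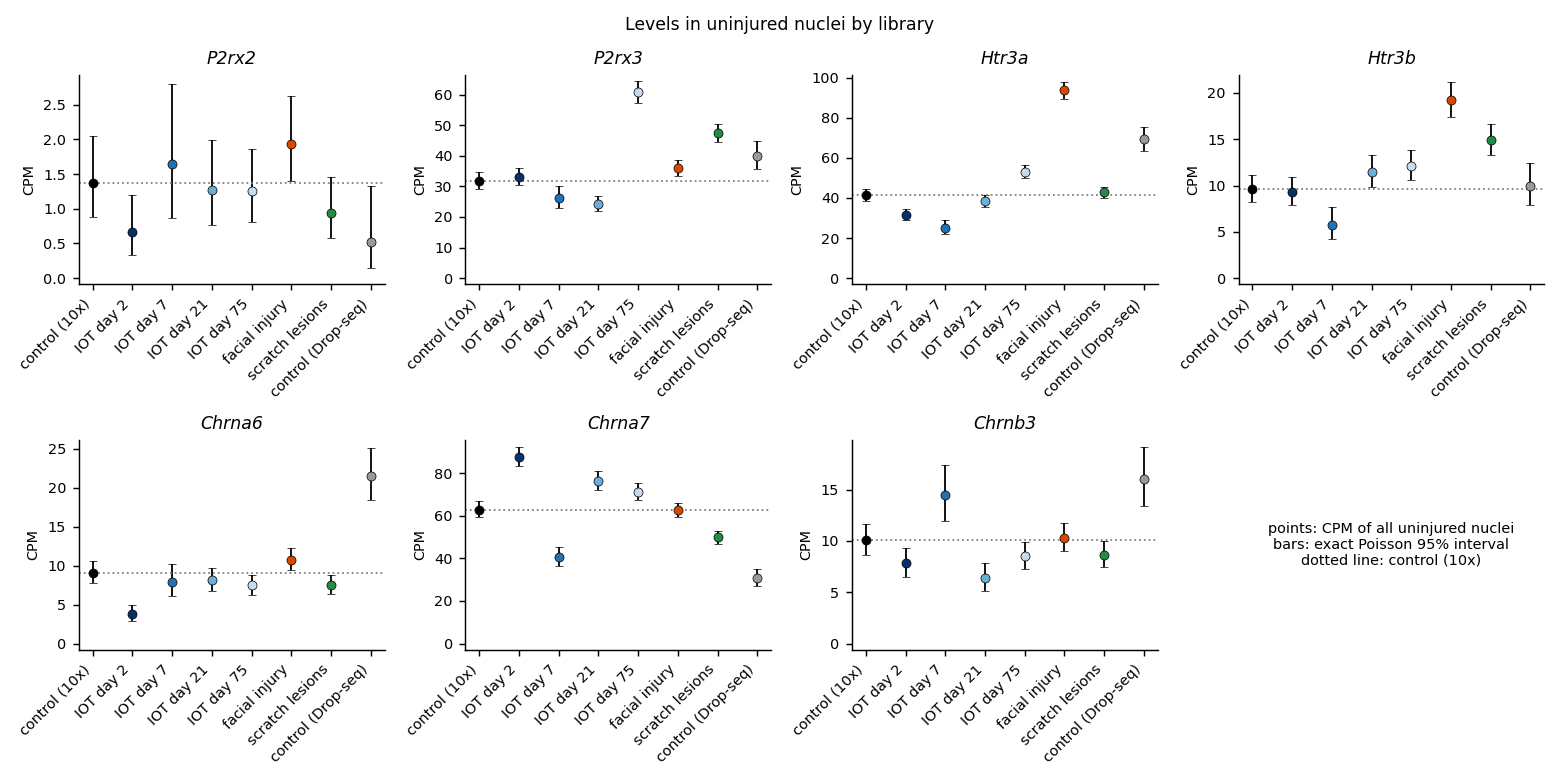
Level of each gene in the uninjured nuclei of each library, as CPM with the exact Poisson 95% interval, which covers counting error only. Htr3a reached 93.6 CPM after facial injury, P2rx3 60.8 at IOT day 75 and Chrna7 87.7 at IOT day 2, each above the 10x control at the dotted line.

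Injured nuclei after IOT held less Chrna7, Htr3a and P2rx3 than uninjured nuclei of the same libraries, while the other 4 genes left at most 6 UMIs in any injured sum. The test was edgeR's quasi-likelihood test on the summed counts with library as a block, adjusted by Benjamini-Hochberg over 12470 genes, and 6 genes passed its filter on low counts. All 6 were called lower, while 13% of all genes tested were lower and 15.5% were higher in injured nuclei. Htr3b, Chrna6 and Chrnb3 passed the filter through the uninjured nuclei, where they are higher, so the count supports nothing. No fitted size from the main settings is given for these 3, and their sizes under alternatives show only how the fit moved.

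Chrna7 fell by 2.07 on the log2 scale (SE 0.16, adjusted p = 8.4e-12). Its levels in uninjured and injured nuclei were 87.7 and 17.4 CPM at day 2, 40.8 and 12.6 at day 7, 76.2 and 11.9 at day 21, and 71.3 and 20.1 at day 75. Every injured sum lay below every uninjured one, and 46, 15, 12 and 11 UMIs stand behind the injured values. Htr3a fell by 1.98 (SE 0.23, adjusted p = 1.9e-08), from 31.6 to 10.2 CPM at day 2, 25.2 to 2.51 at day 7, 38.4 to 2.97 at day 21 and 53.2 to 18.3 at day 75. Its injured sums also lay below all uninjured ones, though days 7 and 21 rested on 3 UMIs each.

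P2rx3 fell by 1.29 (SE 0.20, adjusted p = 6.0e-06), and its adjusted p was 0.068 without the library block. It went from 33.2 to 13.6 CPM at day 2, 26.3 to 14.3 at day 7, 24.3 to 3.97 at day 21 and 60.8 to 18.3 at day 75, and the groups did not overlap. Htr3b had 4, 1, 2 and 4 UMIs in the injured nuclei of the 4 days, with ratios of injured to uninjured of 0.16, 0.14, 0.17 and 0.60 and upper 95% bounds of 0.42, 0.85, 0.63 and 1.56. The groups overlapped for Htr3b, since injured nuclei at day 75 were at 7.31 CPM, above the uninjured 5.79 of day 7.

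Chrnb3 was at 6.38 to 14.5 CPM in uninjured sums and 0.99 to 1.83 in injured ones, on 4, 2, 1 and 1 UMIs, and the upper 95% bound of the ratio was 0.51, 0.43, 0.89 and 1.21. Chrna6 had 1, 3, 6 and 1 UMIs in the injured nuclei (adjusted p = 0.012), and at day 21 the ratio of injured to uninjured was 0.73 (95% interval 0.26 to 1.64). Its call was lost without day 2 (adjusted p = 0.13), under DESeq2 (0.062) and without the library block (0.16), and against large-diameter uninjured nuclei alone its value was 0.31 (adjusted p = 0.72). The call of Chrnb3 was also lost against large-diameter nuclei alone (-1.06, adjusted p = 0.13). P2rx2 was at 0 UMIs among injured nuclei at each of the 4 days. The uninjured level of 0.67 to 1.64 CPM lay below the injured floor of 3 UMIs, 1.13 to 5.48 CPM, in every library, so a change was not detectable.

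These directions depended on how a nucleus was called injured. When it needed only UMIs of 3 of 10 injury markers, in place of membership of the injured clusters, Htr3a and Chrna7 were higher in the nuclei called injured after IOT, by 0.45 (adjusted p = 0.024) and 0.42 (adjusted p = 0.014). Htr3b and P2rx3 were at 0.051 and -0.083 and missed the threshold, and Chrnb3 and Chrna6 were the 2 genes that still fell. After the milder injuries Chrna7 was also higher by that definition, at 0.56 (adjusted p = 0.044). It called 12.4% of control_10x nuclei injured, against 0.092% by cluster, and the nuclei it called were deeper, with a median of 5742 UMIs against 3053 in control_10x and higher medians in all 8 tables. This definition called 1504, 665, 879 and 883 nuclei after IOT in order of days. Of these, 574, 464, 251 and 98 were in the injured clusters. The part of depth and of nuclei outside those clusters in this reversal was not tested.

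**Figure D4:**
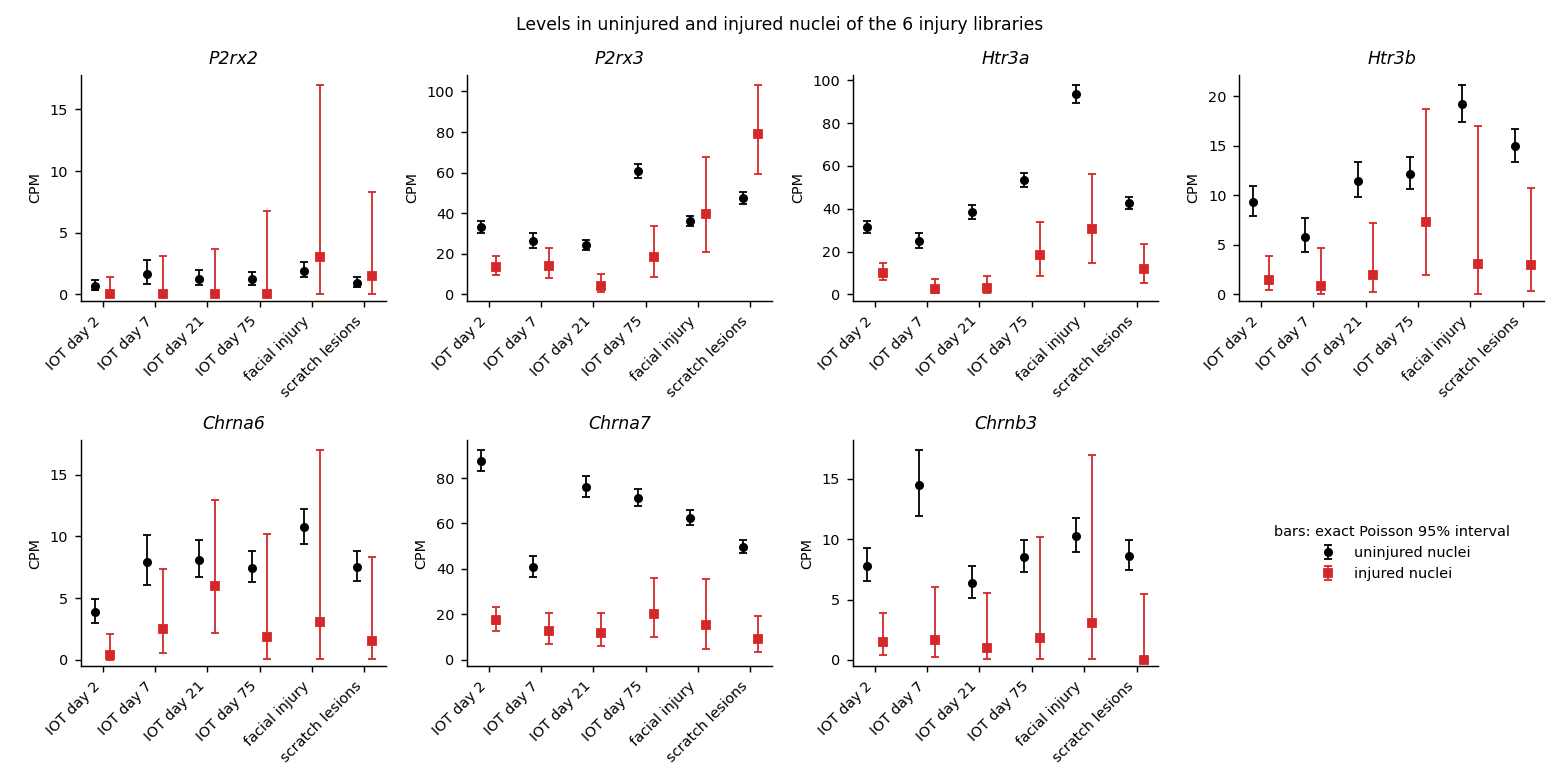
CPM in uninjured (black circles) and injured (red squares) nuclei of each injury library, with bars for exact Poisson 95% intervals. Injured levels of Chrna7 were 0.16 to 0.31 of the uninjured ones in the 6 libraries. Those of P2rx3 were lower in the 4 IOT libraries and stood at 1.10 and 1.67 times the uninjured level after facial injury and with scratch lesions. The 95% interval of the facial injury ratio, 0.58 to 1.89, included 1.

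Facial injury and scratch lesions, the milder injuries, gave a contrast of 2 libraries in the same fit. There 4.38% of genes were lower and 4.01% higher in injured nuclei, and 4 of the 6 genes tested were called lower, of which Htr3b and Chrnb3 again entered through the uninjured nuclei. Chrna7 fell by 2.28 (SE 0.35, adjusted p = 1.9e-05), from 62.6 to 15.2 CPM after facial injury and from 49.8 to 8.93 with scratch lesions. Htr3a fell by 1.73 (SE 0.33, adjusted p = 0.00055), from 93.6 to 30.5 and from 42.8 to 11.9 CPM. The groups did not overlap for either gene.

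Htr3b had 1 and 2 UMIs in injured nuclei, with injured to uninjured ratios of 0.16 (95% interval 0.0040 to 0.89) and 0.20 (0.024 to 0.73). Chrnb3 had 1 and 0 UMIs. Chrna6 had 1 UMI in each library and missed the threshold (adjusted p = 0.13). P2rx2 also had 1 in each and was not tested. Without scratch lesions Chrna7 alone passed (adjusted p = 0.041), and without facial injury Chrna7 and Htr3a did (0.0023 and 0.049). Each of these tests has 1 milder library, which is assumed to vary as the IOT libraries do.

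P2rx3 went the other way in value after the milder injuries. It was at 36.0 CPM in uninjured and 39.6 in injured nuclei after facial injury (13 UMIs), and at 47.3 and 78.9 with scratch lesions (53 UMIs), a log2 difference of 0.57 (SE 0.25, adjusted p = 0.17). The difference between the 2 kinds of injury was itself tested, and the change of P2rx3 was lower after IOT by 1.86 (SE 0.33, adjusted p = 0.0012). In that test 0.313% of all genes were called lower and 0.642% higher, and P2rx3 was the only one of the 6 called. For Htr3a and Chrna7 the difference was -0.25 (SE 0.47) and 0.22 (SE 0.46), with adjusted p of 0.91 and 0.93. Htr3b, Chrna6 and Chrnb3 also missed the threshold (adjusted p of 0.89 to 0.93), and their sizes are not given. After facial injury and with scratch lesions they had 1 and 2, 1 and 1, and 1 and 0 UMIs in injured nuclei. The errors for Htr3a and Chrna7 and these few UMIs leave room for sizeable differences.

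The call of the P2rx3 difference was lost without the scratch lesion library, which differs in strain and transgenes too, while its value was -1.35 (SE 0.55, adjusted p = 0.67). Without facial injury the value was -2.07 (adjusted p = 0.0058). With 1 milder library left, both tests take their spread from the IOT libraries alone. The P2rx3 difference passed without each IOT library in turn (adjusted p of 0.00014 to 0.0021). Without the library block its adjusted p was 1.

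The mix of injured nuclei also moved with this difference. Injured nuclei formed the groups I1 and I2, which carry traces of large and small neurons. In a clustering at resolution 2, whose injured nuclei differ by a few from those above, I1 and I2 held 451 and 131 nuclei at IOT day 2, 409 and 99 at day 7, 216 and 38 at day 21, and 88 and 9 at day 75. After facial injury they held 45 and 87 and with scratch lesions 54 and 163, so I2 was the larger group after the milder injuries and I1 after IOT. P2rx3 in I2 was at 40.5, 34.5, 8.12 and 18.1 CPM after IOT in order of days, 67.2 after facial injury and 103 with scratch lesions, on 19, 7, 1, 1, 12 and 46 UMIs. In uninjured small-diameter classes of the same libraries it was at 55.9, 42.8, 43.5, 98.3, 54.6 and 71.4 CPM.

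A comparison matched by size was added after seeing these values. Named classes were sized by name, and unnamed ones by whether large-diameter or small-diameter markers had the higher mean z-score. Cplx2/Spint2 counted as large by a narrow margin, at 0.133 against 0.088. In I2 against small-diameter classes the P2rx3 value was -0.76 after IOT (adjusted p = 0.059) and 0.53 after the milder injuries (adjusted p = 0.23), and the difference was -1.29 (adjusted p = 0.082). In I1 against large-diameter classes P2rx3 fell by 1.46 after IOT (adjusted p = 8.7e-05), and the difference between injuries was -1.22 (adjusted p = 0.64). Of genes tested, 0.386% were lower in the first test of the difference, and 0.0953% were lower and 0.0779% higher in the second. Neither matched comparison called P2rx3 in the test of the difference. The sign of the difference was the same in both, and the part of the I1 and I2 mix was not tested further.

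Matched by size, Chrna7 fell after IOT by 2.29 in I1 (SE 0.17). The large classes include Cplx2/Spint2, a narrow call that held most of the uninjured Chrna7 UMIs and a large part of those of Htr3a. Whether the falls of these genes in I1 hold without that class was not tested. I2 nuclei held 4, 1, 0 and 0 Chrna7 UMIs in order of days, with ratios to small classes of up to 0.80, 1.74, 1.27 and 2.42 at the upper 95% bound, and no size is given for its call there (adjusted p = 0.0037). Of all genes tested, 12.9% were lower in I1 against large classes, and 6.41% lower and 5.88% higher in I2 against small ones. Htr3a fell by 2.20 in I1, on 22, 2, 3 and 8 UMIs in order of days. Htr3b held 3, 1, 2 and 4 UMIs in I1, so no size is given for it. Its ratios to large classes were at most 0.37, 0.89, 0.69 and 1.68 at the upper 95% bound. In I2 Htr3a missed the threshold (-1.27, adjusted p = 0.068), and Chrnb3, which was called, held 2 UMIs in I2 over the 4 libraries and entered through the uninjured nuclei. After the milder injuries 1.85% of genes were lower in I1, and Htr3a and Chrna7 were among them. After facial injury and with scratch lesions I1 held 4 and 3 Htr3a UMIs and 1 and 4 Chrna7 UMIs, so no size is given. Their ratios to large classes were at most 0.61 and 0.74 for Htr3a and 0.44 and 0.60 for Chrna7 at the upper 95% bound. In I2, 3.12% of genes were lower and 4.12% higher after the milder injuries. The only member called there was Chrnb3, which had 1 UMI in I2 and again gives no support.

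**Figure D5:**
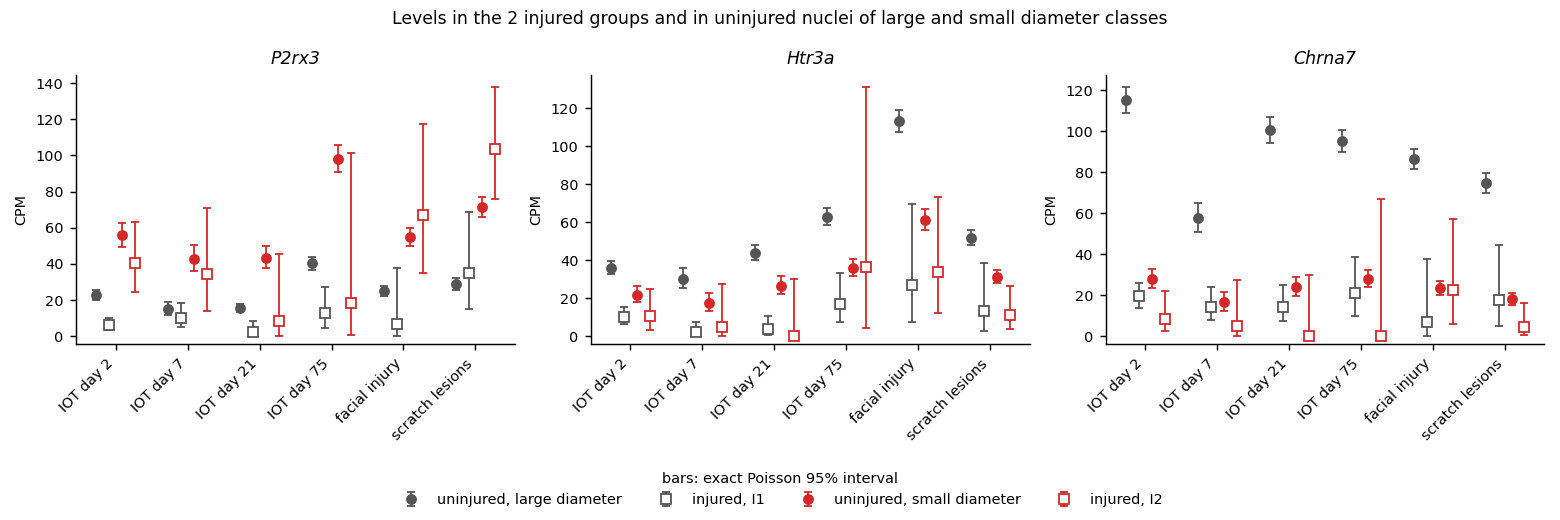
CPM of P2rx3, Htr3a and Chrna7 in I1 nuclei beside uninjured large-diameter classes (grey) and in I2 nuclei beside uninjured small-diameter classes (red), for each injury library, with exact Poisson 95% intervals. P2rx3 in I2 nuclei was at 8.12 to 40.5 CPM after IOT and at 67.2 and 103 after facial injury and with scratch lesions.

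Between I1 and I2 after IOT none of the 7 genes passed the filter on low counts, in a test where 5.76% of 6318 genes were lower and 8.53% higher in I1. Without that filter P2rx3 was lower in I1 by 1.87 (SE 0.45, adjusted p = 0.0015), on 13, 10, 2 and 6 UMIs in I1 and 19, 7, 1 and 1 in I2. In uninjured nuclei of control_10x P2rx3 was at 49.4 CPM in small and 20.7 in large classes. Chrna7 left 5 UMIs in I2 over the 4 libraries, too few to compare.

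The relatives of these genes did not move as 1 block in injured nuclei after IOT. Over all genes tested there, 13% were lower and 15.5% higher, and each list holds few genes. UMI counts are not given for the relatives. Any of them may have passed the filter through the group where it is higher, so a size may rest on few UMIs in the other group. Of the other P2X subunits, 4 of 5 were tested and none passed, with values from 0.06 to 0.49. Among metabotropic P2Y receptors, 2 of 4 tested fell, P2ry1 by 1.91 (adjusted p = 4.7e-07) and P2ry14 by 0.45 (adjusted p = 0.0066). Of 3 other nicotinic subunits tested from 13 listed, Chrna9 rose by 1.26 (adjusted p = 0.00083) and Chrna3 and Chrnb2 did not pass, at -0.95 and -0.27. After the milder injuries the value of Chrna9 was -6.28 with an SE of 4.38, too wide to read.

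G protein-coupled serotonin receptors split, with 1 of 8 tested higher and 3 lower. Htr4, Htr1b and Htr7 fell by 2.01, 1.90 and 1.35, while Htr1f, a receptor on which antimigraine drugs act, rose by 1.90 (adjusted p = 5.9e-17). After the milder injuries Htr1f fell instead, by 0.75 (adjusted p = 0.0079), and the difference of 2.65 passed (adjusted p = 3.2e-10), the only call among the relatives in that test. Htr4 and Htr7 fell after the milder injuries too, by 1.002 (SE 0.30) and 1.64 (SE 0.50). Between the injured groups after IOT, Htr1f was higher in I1 than in I2 by 1.01 (edgeR, adjusted p = 5.8e-08). In that test 8.53% of genes were higher in I1. I1 was the larger group after IOT and I2 after the milder injuries, and the part of this mix in the Htr1f difference was not tested. The median change of this list after IOT was -0.55, beside -0.02 over all genes tested.

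Among 8 genes for assembly and modulation of nicotinic receptors, Ly6h, a modulator of Chrna7 channels, fell by 2.103 (adjusted p = 4.8e-12) and Tmem35a, the chaperone NACHO that these channels need for assembly, by 1.30 (adjusted p = 1.7e-05). Ric3, another chaperone, rose by 0.42 (adjusted p = 0.0043). After the milder injuries Ly6h fell by 1.43 and Lynx1 by 0.44. Of 10 genes tested for release and breakdown of the transmitters, Slc6a4, the serotonin transporter, rose by 3.502 (adjusted p = 7.4e-10), and Ache, which splits acetylcholine, Entpd3, which splits ATP, and the channel gene Panx2 fell by 1.28, 1.18 and 0.49. Slc6a4 also rose after the milder injuries, by 5.46 (adjusted p = 5.0e-08), with Nt5e up by 1.31 and Entpd3 and Panx2 down by 0.80 and 0.68. The SE for Slc6a4 was 0.34 after IOT and 0.60 after the milder injuries. Its UMIs in uninjured nuclei are not given, so these sizes are not read beyond their direction.

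Injured nuclei of the 6 injury libraries held 8 of 8 satellite glia and fibroblast markers, 7 to 8 of 8 Schwann cell, 6 to 8 of 8 vascular and 4 to 7 of 7 leukocyte markers, and uninjured nuclei held all of them. Satellite glia markers summed to 1064 to 2179 CPM in injured and 1116 to 1951 in uninjured nuclei of the 6 injury libraries, and Schwann cell markers to 542 to 1393 and 491 to 1329. In the facial injury library fibroblast, leukocyte and vascular markers were higher in injured nuclei, at 219, 45.7 and 183 CPM against 128, 18.8 and 122, as were Schwann cell markers, at 1393 against 967.5. With scratch lesions vascular markers were at 190.5 against 120 CPM, and at IOT day 2 leukocyte and vascular markers at 21.2 and 119 against 11.4 and 94.5. At days 7, 21 and 75 vascular markers were lower in injured nuclei, at 84.6, 39.7 and 137 CPM against 122.5, 71.2 and 162.6. The median depth of injured nuclei was above that of uninjured ones in all 6. The part of these in the results was not tested.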

How the data were processed

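The deposited tables hold UMI counts per gene and nucleus. Per the labels and the study's methods, the authors isolated NeuN-positive nuclei, made 10x (v2 chemistry) or Drop-seq libraries, counted reads on a mm10 reference that includes introns, and removed outlying and non-neuronal nuclei. Tools named in the submitters' processing notes are Seurat 2, STAR 2.5.3a, Cell Ranger 2.1.0 and bcl2fastq 2.17. The annotation version and the handling of strand are not given in the sources used here. Drop-seq nuclei could not be tied to their 4 libraries.

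Counts were scaled to 10000 per nucleus, log-transformed and z-scored within libraries (values clipped at 10). The 2000 most variable genes that were not withheld gave 30 principal components, and nuclei were clustered by Leiden at resolution 1 on 20 neighbours (scanpy 1.11.5, leidenalg 0.10.2), with I1 and I2 taken from resolution 2. A cluster took a name when its markers averaged a z-score of at least 0.5, led the next name by 0.25 and included at least 3 detected in over 5% of nuclei. Clusters under 20 nuclei were left out (1 nucleus), and the levels of 1 class are not reported here. No nucleus was removed as a doublet in the main results, and the 5% with the highest doublet score were removed as an alternative.

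Sums of counts were tested in edgeR 4.0.16 (TMM scaling, filterByExpr, quasi-likelihood, Benjamini-Hochberg adjusted p) with library as a block, over 12 sums with 4 residual degrees of freedom. This block is the pairing: the injured and uninjured nuclei compared come from the same library. The 2000 clustering genes were left out of the tests. The test was checked on simulated counts in which libraries differed only in depth. That check cannot cover differences between days, strains or injuries. Libraries pool mice, so p-values rest on the spread between these libraries and not between mice. That spread is moderated in edgeR with the spread of all genes tested. The p-values can therefore be far smaller than 4 residual degrees of freedom alone would give. The 4 IOT libraries that serve as replicates also differ in day.

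Intervals are exact 95% Poisson intervals and floors are 3 UMIs, and both cover counting error only. The genes, lists and markers were chosen with earlier results of these data known. Relatives were named by a rule: up to 4 per list, those with the smallest adjusted p after IOT among those under 0.05, with calls in the other contrasts added after their values were seen. Alternatives covered scaling, DESeq2 1.42.0, the filter, the block, each library, clustering, the definition of injured nuclei, doublets, and thinning depth. Size-matched groups and, for the difference between injuries, restriction to uninjured nuclei of 1 size were added after seeing the data.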

Additional observations from a re-analysis of the deposited data

Results flagged for a closer look

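The change of P2rx3 in injured nuclei differed between the kinds of injury. The effect after IOT minus that after the milder injuries was -1.86 on the log2 scale (edgeR, adjusted p = 0.0012), with injured below uninjured nuclei in 4 of 4 IOT libraries and above them in 2 of 2 milder ones. Without the scratch lesion library the value was -1.35 (adjusted p = 0.67), with the spread taken from the IOT libraries alone.

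The change of Htr1f also differed, in the opposite direction, by 2.65 (adjusted p = 3.2e-10), as it rose after IOT and fell after the milder injuries.

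In the comparisons matched by size, I1 against large classes and I2 against small ones, P2rx3 was not called in the test of the difference. The sign stayed the same in both. Htr1f was higher in I1 than in I2 after IOT, and the mix of these groups also differed between the injuries. No explanation was tested further for P2rx3, and none was tested for Htr1f.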

How the results depend on the processing

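Of the values that answer a comparison, 151 stayed under an alternative, 33 counts of genes or members called fell, 3 such counts rose and 9 other values moved. A count stayed if it was within a set fold of the main count, so it could stay while some genes lost their call. Any other value stayed if it was within the spread. Of single genes, 275 stayed, 34 lost their call, 2 gained one and 16 reversed. The cause of these changes was not tested, beyond the fewer nuclei, genes or libraries of some alternatives. After IOT, 3564 genes were called and 6 of the 7 members were lower. Without the replicate block, that is without the pairing within libraries, 756 genes were called and 4 members were lower. In I2 against small classes 1242 genes were called and 2 members were lower. With a nucleus called injured by 3 of 10 markers 1278 genes were called, 2 members (Chrna6 and Chrnb3) were lower and 2 (Htr3a and Chrna7) were higher. Without the filter on low counts P2rx2 was called as well, at 0 UMIs in injured nuclei, so no size is given. After the milder injuries, 1046 genes were called and 4 members were lower. No filter gave 1575 genes, no replicate block 62 and 0 members, 3 of 10 markers 329 and 1 lower (Chrnb3), with Chrna7 called higher, and I1 against large classes 446 and 2. DESeq2 called 2 members, small classes alone 2 and I2 against small classes 1. For the difference between injuries, 119 genes and 1 member were called. No filter gave 280 genes, no replicate block 1 and 0 members, 3 of 10 markers 0 and 0, I1 against large classes 20 and 0, and I2 against small classes 64 and 0. DESeq2 gave no adjusted p for the members in that contrast.

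Where a milder library is left out, the other is assumed to vary as the IOT libraries do. Leaving out 1 library gave 2512 to 3594 genes and 5 to 6 members after IOT. After the milder injuries it gave 177 (without scratch lesions) to 1229 genes and 1 to 4 members, with 530 genes and 2 members without facial injury. For the difference it gave 10 (without scratch lesions) to 178 genes and 0 to 1 members, with 36 genes without facial injury. Between I1 and I2 it gave 458 (without day 2) to 970 genes, with 498 without day 7. There 903 genes were called, 281 under DESeq2, 36 without the replicate block and 1513 with I1 and I2 from a finer clustering.

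With 3 of 10 markers, values turned to 0.45 for Htr3a, 0.051 for Htr3b and 0.42 for Chrna7 after IOT, to 0.54, 0.29 and 0.56 after the milder injuries, and to -0.24 for Htr3b, -0.14 for Chrna7 and -0.025 for Chrnb3 in the difference. That definition called 12.4% of control_10x nuclei injured. Against large classes alone Chrna6 was at 0.31 after IOT, and in I1 P2rx3 was at -0.235 after the milder injuries. In the difference Chrna6 was at -2.57 without likely doublets and -0.0041 without day 21, Chrna7 at -1.15 in I2, Htr3b at -0.057 without day 75 and Chrnb3 at -0.61 without scratch lesions. Over all libraries left out in turn, that difference reached 0.71 for Htr3b, 1.07 for Chrna6 and 6.78 for Chrnb3, the last without facial injury, where no Chrnb3 UMI was left in injured nuclei of the milder group.

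The ratio of the top class to the rest moved for P2rx3 from 5.48 to 5.97 in thinned shares, and at Leiden resolution 2 for Htr3a from 4.19 to 5.48, Htr3b from 2.64 to 3.91 and Chrna7 from 6.83 to 9.51. The ratio of the highest to the lowest 10x library moved for Chrna7 from 2.15 to 1.75 at 1000 UMIs and 1.41 at 2000, and at 2000 for Htr3a from 3.72 to 3.06, Chrna6 from 2.80 to 2.09 and Chrnb3 from 2.27 to 1.69. Injured nuclei allow a floor of 1.13 to 9.14 CPM, which limits P2rx2, Chrna6, Chrnb3 and Htr3b.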
